A study of Mus musculus with 18 samples.

Results

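The CDK inhibitors and D-type cyclins described here are 10 genes: Cdkn1a, Cdkn1b, Cdkn1c, Cdkn2a, Cdkn2b, Cdkn2c, Cdkn2d, Ccnd1, Ccnd2 and Ccnd3. They were chosen by name, as the non-control probes whose gene name on the array is one of these symbols. No measured value enters that rule, but the list was chosen with earlier results of these data known. All 10 genes were found, on 15 of 41174 probes, among 20830 named genes. All 10 were bright enough to enter the test of 15281 genes.

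Cyclin-dependent kinases carry a cell through division when they are bound to a cyclin. D-type cyclins rise when growth factors arrive, in macrophages mainly CSF1, and bind CDK4 and CDK6, which then phosphorylate the retinoblastoma protein so that E2F factors can switch on genes of DNA synthesis. Families of inhibitors hold these kinases back. The Cip/Kip proteins p21 (Cdkn1a), p27 (Cdkn1b) and p57 (Cdkn1c) bind complexes of cyclin and kinase, whereas the INK4 proteins p16 (Cdkn2a), p15 (Cdkn2b), p18 (Cdkn2c) and p19 (Cdkn2d) bind CDK4 and CDK6 themselves.

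The cells were macrophages grown from the bone marrow of C57BL6/J mice aged 8 to 12 weeks. Marrow of several animals of both sexes was pooled for a culture, and the cells were grown in human recombinant CSF1 at 200 ng/ml. Irf4+/- and Irf4-/- littermates were compared, so the control genotype lacks 1 allele of Irf4, a transcription factor that IL-4 induces in macrophages, and no wild-type cells were analysed. From day 7 the cells of each genotype received IL-4 (10 ng/ml) over 4 h or over 18 h, or spent 18 h without it (mock), which gives 6 groups of 3 samples. The 3 samples of a group carry the letters A, B and C, which name 3 independent experiments. The only mock cells are those of 18 h, so they also serve as the reference for the 4 h samples, and the comparisons of 4 h and 18 h with mock share their mock arrays.

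RNA of each sample was hybridised to 1 single-colour Agilent array, and 63.4% to 74.4% of its spots were well above background. Levels are log2 intensities from which the 75th percentile of the same array was subtracted, so a level of 0 equals that percentile. Levels of the members are compared between samples for 1 probe at a time, never between genes. Marker lists are given as sums of linear levels over probes of different genes, and the lists differ in their number of genes. The 8 macrophage markers examined were above background on all arrays, with a summed linear level of 481 to 1040 times the 75th percentile. The 5 neutrophil markers measured summed to 12.9 to 52.8, highest in the 3 Irf4-/- samples of letter A, and the 5 B-lineage markers to 1.19 to 3.89. T and NK, dendritic, mast cell, erythroid and fibroblast markers each summed to 1.13 or less. The single Irf4 probe read 1.72 ± 0.33 after 4 h of IL-4 in samples labelled Irf4-/- (log2, SD, n = 3) and 1.67 ± 0.59 in samples labelled Irf4+/-. Whether it lies inside the deletion is not known here, so it checks no label, and genotypes below are those of the labels.

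Each comparison was fitted in 2 ways. The unblocked fit sets group means against the spread of arrays within groups, pooled over the 6 groups and moderated across genes. The blocked fit first removes the level shared by all samples of a letter. Arrays of the same letter deviated together throughout, so both are given. A gene rose, fell or was called in a fit when its adjusted p over all 15281 genes was under 0.05. The ± after a log2 change gives its standard error in the unblocked fit. Where only the blocked fit called a change, this is said.

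Cdkn2b and Cdkn1a were higher after 4 h of IL-4 in every experiment and both genotypes, and at 18 h lay between the mock and the 4 h sample of the same culture. Cdkn1c and Ccnd2 were lower after 18 h in every experiment and both genotypes. Of the 10 members, 1 (Cdkn2b) was called at 4 h in Irf4+/- cells in the unblocked fit, where 4.31% of all genes were called. The blocked fit called 3 (Cdkn1a and Cdkn2b up, Cdkn1c down), against 18.4% of all genes. With 10 genes against that background the counts are not read as a result about the group, and the genes are described singly. The plot of levels by sample shows all 10.

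**Figure D1:**
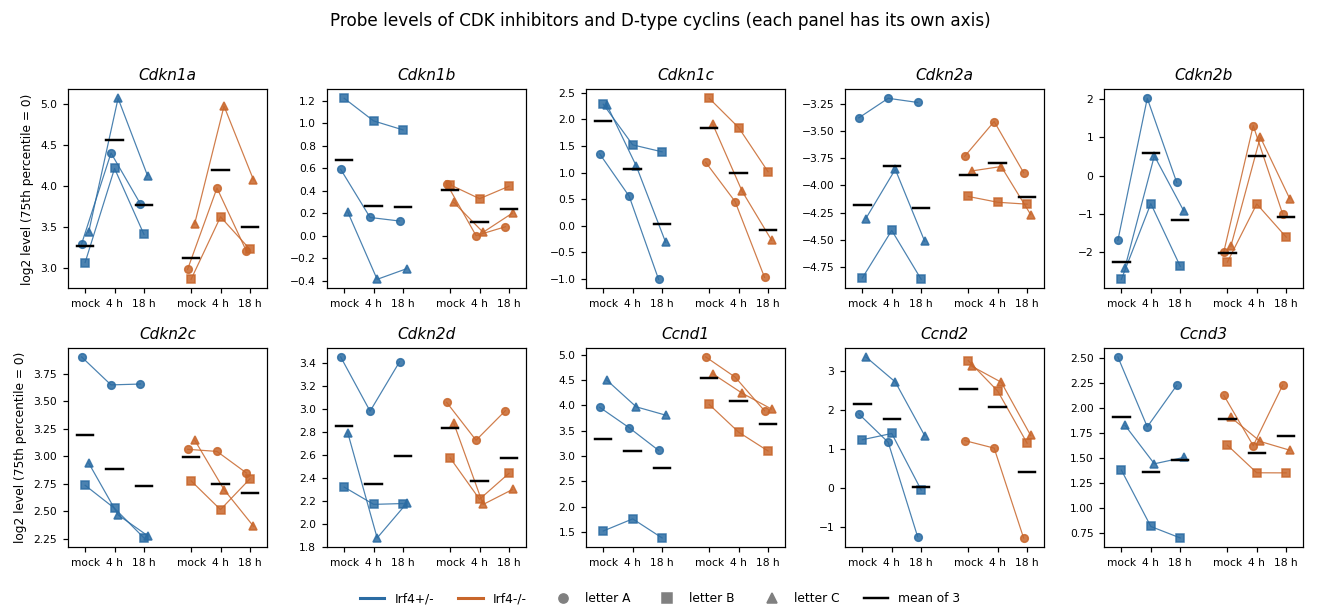
Log2 level (75th percentile of the array = 0) of the probe used for each of the 10 genes, in mock cells and after 4 h and 18 h of IL-4, with a line for each letter and genotype and a black bar for the mean of 3. All 6 lines of Cdkn1a and of Cdkn2b peak at 4 h, all 6 lines of Cdkn1c end lowest at 18 h, and the Irf4+/- line of letter B lies below the other 5 for Ccnd1.

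Cdkn2b encodes p15, an INK4 inhibitor known as a target of TGF-beta signalling. In Irf4+/- cells its level was -1.70, -2.71 and -2.41 in mock samples A, B and C, 2.02, -0.73 and 0.52 after 4 h of IL-4, and -0.18, -2.37 and -0.93 after 18 h. The mock and 4 h samples did not overlap, and letter B was the lowest of the 3 at each time. The level rose by 2.87 ± 0.68 at 4 h, 7.33-fold (adjusted p = 0.0255, blocked 2.74e-04). In the 3 letters the rise was 3.72, 1.98 and 2.92.

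Cdkn2b in Irf4-/- cells read -1.99, -2.26 and -1.85 in mock samples, 1.31, -0.74 and 1.00 at 4 h, and -1.005, -1.61 and -0.60 at 18 h. Here every 4 h and every 18 h sample lay above every mock sample. The change at 4 h was 2.56 ± 0.68, 5.89-fold, called in the blocked fit alone (adjusted p = 0.0511, blocked 7.25e-04). At 18 h Cdkn2b was still 1.11 ± 0.68 above mock in Irf4+/- cells and 0.96 ± 0.68 above it in Irf4-/- cells, which neither fit called (blocked adjusted p 0.0818 and 0.11). Both changes were called with the culture as a random block in place of the letter (adjusted p 0.0236 and 0.0369). The difference between 18 h and 4 h was -1.76 in Irf4+/- and -1.60 in Irf4-/- cells, a fall in the blocked fit alone (blocked adjusted p 0.0133 and 0.0283). The Irf4+/- difference was -1.05 without the 4 h array of letter A and -1.15 without the 18 h array of B.

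The unblocked call of Cdkn2b in Irf4+/- cells at 4 h was lost without the IL-4 4 h array of letter A (2.16, adjusted p = 0.127), the mock array of B (0.103), the mock array of C (0.0863) or the IL-4 4 h array of C (0.0702). It was also lost with the compared groups alone (0.137) and after normexp background correction (2.54, adjusted p = 0.06). When spots far dimmer than their surroundings were left out of that correction, the call was kept (2.57, adjusted p = 0.0172). In Irf4-/- cells the unblocked fit called Cdkn2b without the IL-4 4 h array of letter B (3.19, adjusted p = 0.0199). It was called there as well with normexp without those dim spots (2.34, adjusted p = 0.0304). These are bulk RNA levels, in which more RNA per cell and more cells that hold it cannot be told apart.

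Cdkn1a encodes p21, the inhibitor best known as a target of p53. Its level in Irf4+/- cells was 3.29, 3.06 and 3.43 in mock samples A, B and C, 4.40, 4.21 and 5.07 after 4 h of IL-4, and 3.78, 3.41 and 4.13 after 18 h. The Irf4-/- samples read 2.98, 2.86 and 3.53, then 3.97, 3.62 and 4.97, then 3.20, 3.22 and 4.07. In both genotypes every 4 h sample lay above every mock sample, and letter C was highest in all 6 groups.

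The change of Cdkn1a at 4 h was 1.30 ± 0.35, 2.46-fold, in Irf4+/- cells, a rise in the blocked fit alone (adjusted p = 0.0541, blocked 1.1e-04). The Irf4-/- change was 1.07 ± 0.35, 2.09-fold (adjusted p = 0.138, blocked 5.23e-04). At 18 h Cdkn1a stood 0.51 ± 0.35 above mock in Irf4+/- cells (adjusted p = 0.775, blocked 0.0474) and 0.38 ± 0.35 above it in Irf4-/- cells (0.75, blocked 0.115). It fell between 4 h and 18 h in the blocked fit, by 0.79 in Irf4+/- cells (blocked adjusted p = 0.00681) and by 0.69 in Irf4-/- cells (0.0191). Without the Irf4-/- IL-4 4 h array of letter C the latter difference was -0.30 and the 4 h change in Irf4-/- cells 0.67. The 18 h change in Irf4+/- cells was 0.33 without the 18 h array of C. The blocked call of that change was lost with the slide as a fixed block in place of the letter (adjusted p = 0.0531). With every probe in the blocked fit it was lost as well (0.0613). With normexp the 18 h change in Irf4+/- cells was 0.08, and 0.50 when spots far dimmer than their surroundings were left out of that correction.

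Cdkn2b and Cdkn1a moved together over the samples. With each letter's mean removed, their levels had a Pearson correlation of 0.912 over the 18 arrays, the highest among the 10 members, which describes arrays that share 3 conditions and is given without a test. Because these are the members that rose, the 250 bases before their annotated starts are shown. They come from RefSeq on build GRCm38.p6, whose table held starts of 7 of the 10 members. Cdkn1c, Ccnd1 and Ccnd2 have no entry. Cdkn1a has 2 annotated starts. The windows are Cdkn2b at chr4:89311033-89311282 (minus strand), the Cdkn1a start 1 window at chr17:29090729-29090978 and the Cdkn1a start 2 window at chr17:29093519-29093768 (both plus strand). Capitals mark motifs found on either strand, and the last base of each line is the base before the start.
Cdkn2b: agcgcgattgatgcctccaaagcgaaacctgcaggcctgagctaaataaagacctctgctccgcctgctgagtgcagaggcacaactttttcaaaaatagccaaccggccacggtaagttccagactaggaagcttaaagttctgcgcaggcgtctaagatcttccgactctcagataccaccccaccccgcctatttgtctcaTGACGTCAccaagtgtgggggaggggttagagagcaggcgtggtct
Cdkn1a start 1: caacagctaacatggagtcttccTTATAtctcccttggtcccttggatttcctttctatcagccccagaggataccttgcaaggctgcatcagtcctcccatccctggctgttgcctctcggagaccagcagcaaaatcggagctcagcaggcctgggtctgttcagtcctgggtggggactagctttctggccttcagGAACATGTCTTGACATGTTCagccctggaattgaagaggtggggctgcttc
Cdkn1a start 2: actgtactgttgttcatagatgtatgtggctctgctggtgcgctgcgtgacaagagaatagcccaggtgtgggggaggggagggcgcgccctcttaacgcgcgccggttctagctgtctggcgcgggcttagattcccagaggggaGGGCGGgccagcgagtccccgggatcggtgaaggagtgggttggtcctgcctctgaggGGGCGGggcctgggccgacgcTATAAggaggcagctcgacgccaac

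The motifs searched were TTCNNNNGAA and TTCNNNGAA (STAT palindromes, the first of them the spacing that STAT6 prefers), GAAANNGAAA (a pair of IRF half-sites), GGGCGG (a GC box), TGACGTCA (a cyclic AMP response element), TATAA, and the p53 response element without a spacer and with at most 1 mismatch. The p53 element was added after the windows had been read. No 2 hits overlap in the windows shown. The Cdkn2b window holds TGACGTCA from 46 bases before the start, a motif found in 1.55% of the 32851 windows of this length. The Cdkn1a start 1 window holds the p53 element from 51 bases before the start, which 0.0761% of windows hold, and TATAA from 227. The Cdkn1a start 2 window holds GGGCGG from 104 and 46 bases before the start and TATAA from 25, found in 32.7% and 22.8% of windows. Neither STAT palindrome (5.85% and 7.02% of windows) nor the IRF pair (2.98%) was in any of the 11 windows of members. A match describes letters in these windows only.

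**Figure D2:**
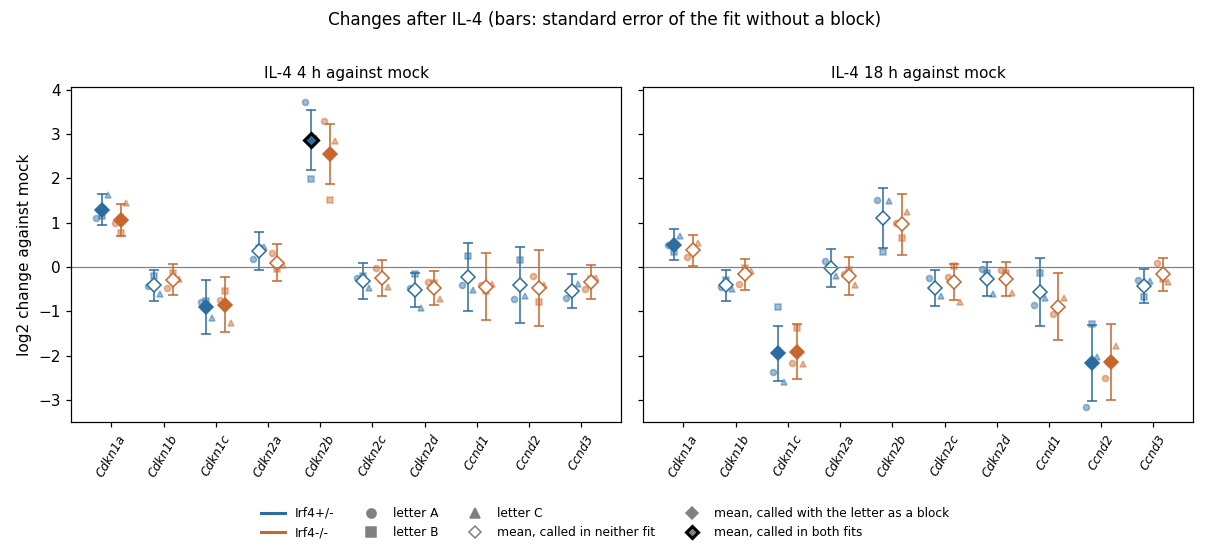
Log2 change against mock at 4 h (left) and 18 h (right) for the 10 genes in both genotypes: small symbols are the 3 letters, diamonds the mean with the standard error of the unblocked fit. Filled diamonds were called in the blocked fit and the black outline, on Cdkn2b at 4 h in Irf4+/- cells, marks the call in both fits.

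Cdkn1c encodes p57, an imprinted gene whose product restrains division in many differentiating tissues. In Irf4+/- cells its level was 1.35, 2.29 and 2.28 in mock samples A, B and C, 0.56, 1.52 and 1.13 at 4 h, and -1.01, 1.39 and -0.31 at 18 h. In Irf4-/- cells it was 1.19, 2.40 and 1.91 in mock samples, 0.45, 1.85 and 0.65 at 4 h, and -0.97, 1.02 and -0.27 at 18 h. All 6 cultures stepped down from mock to 4 h and again to 18 h, and letter A was the lowest in each group. Only in Irf4-/- cells at 18 h did the samples not overlap with mock.

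At 4 h the change of Cdkn1c was -0.90 ± 0.62 in Irf4+/- and -0.85 ± 0.62 in Irf4-/- cells, a fall in the blocked fit alone (blocked adjusted p 0.0381 and 0.0497). The Irf4-/- call was lost with the slide as a random (0.0731) or fixed block (0.161) and with every probe in the blocked fit (0.0608), and the change was -1.28 without the 4 h array of letter B. At 18 h it was -1.95 ± 0.62 in Irf4+/- cells, 3.86-fold lower (adjusted p = 0.11, blocked 3.45e-04), and -1.91 ± 0.62 in Irf4-/- cells, 3.76-fold lower (0.129, blocked 4.58e-04). Without the Irf4+/- IL-4 18 h array of letter B, where the step was smallest (-0.90), the unblocked fit called the 18 h change in Irf4+/- cells as well (-2.63, adjusted p = 0.0194). The 18 h level was 1.05 below the 4 h level in Irf4+/- and 1.06 below it in Irf4-/- cells (blocked adjusted p 0.0283 and 0.0342). With the slide as a random block the Irf4+/- difference was -0.88 (adjusted p = 0.0532) and as a fixed block -0.79 (0.146). It was -0.53 without the 18 h array of letter A and -1.73 without that of B. In Irf4-/- cells it was -0.61 without the 18 h array of A, -0.63 without the 4 h array of B and -1.61 without the 18 h array of B.

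Cdkn1b, which encodes p27, was lower than mock in all 3 letters at both times and in both genotypes, by small amounts. The 4 mean changes ran from -0.42 in Irf4+/- cells at 18 h to -0.16 in Irf4-/- cells at 18 h, and neither fit called any of them. Both Irf4+/- changes of Cdkn1b were called with the culture or the slide as a block in place of the letter (adjusted p 0.0173 to 0.0453). Its level lay between -0.39 and 1.22 over the 18 arrays, and letter B had the highest of the Irf4+/- samples at each time. Of its other probes, 1 was well above background on 11 of 18 arrays only, and neither was called against mock (changes of -0.71 to -0.40).

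Of the other INK4 genes, none was called in any comparison by either fit. Cdkn2a lies beside Cdkn2b on chromosome 4 and gives rise to p16 and, from another start and reading frame, to p19Arf, which acts through p53. Its array probe carries the accessions of both transcripts, so the products cannot be told apart. Its level lay between -4.86 and -3.20, the change at 4 h was 0.36 ± 0.43 in Irf4+/- and 0.10 ± 0.43 in Irf4-/- cells, and at 18 h -0.03 and -0.21. With normexp the 18 h change in Irf4+/- cells became 1.33 (adjusted p = 0.14). The 4 h change in Irf4-/- cells became -0.43 (0.846), so both turned direction with that background correction. When spots far dimmer than their surroundings were left out of it, the 18 h change was 0.03 in Irf4+/- and 0.02 in Irf4-/- cells. With the slide as a fixed block the 4 h change of 0.36 in Irf4+/- cells was called (adjusted p = 0.048).

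Cdkn2c (p18) and Cdkn2d (p19) were lower than mock on average at both times. Cdkn2c changed by -0.31 and -0.46 in Irf4+/- cells at 4 h and 18 h and by -0.24 and -0.33 in Irf4-/- cells, each ± 0.41, and its second probe by -0.45 to -0.21. Cdkn2d changed by -0.51 and -0.27 in Irf4+/- cells and by -0.47 and -0.26 in Irf4-/- cells, each ± 0.38. All 12 differences of Cdkn2d from mock within a letter were below 0. Its 4 h change in Irf4+/- cells was called with the culture or the slide as a block (adjusted p 0.0161 to 0.0198). The culture as a block also called its 4 h change in Irf4-/- cells (0.0294) and the 18 h change of Cdkn2c in Irf4+/- cells (0.0416). For both genes the Irf4+/- samples of letter A were the highest of their group (3.65 to 3.91 for Cdkn2c, 2.98 to 3.45 for Cdkn2d).

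Ccnd2, a D-type cyclin, read 1.90, 1.23 and 3.36 in Irf4+/- mock samples A, B and C, 1.17, 1.39 and 2.72 after 4 h of IL-4, and -1.26, -0.06 and 1.34 after 18 h. The Irf4-/- samples gave 1.21, 3.27 and 3.12, then 1.02, 2.48 and 2.71, then -1.29, 1.14 and 1.34. In each of the 6 cultures the 18 h sample was the lowest. The cultures stood so far apart that the 18 h and mock groups overlapped in both genotypes. Averaged over the 6 groups the SD between letters was 1.13 for Ccnd2, against a median of 0.35 over all genes tested.

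At 4 h Ccnd2 differed from mock by -0.40 ± 0.86 in Irf4+/- and -0.46 ± 0.86 in Irf4-/- cells, called by neither fit. At 18 h the change was -2.16 ± 0.86 in Irf4+/- cells, 4.46-fold lower, a fall in the blocked fit alone (adjusted p = 0.26, blocked 0.00592), and -2.13 ± 0.86 in Irf4-/- cells, 4.39-fold lower (0.268, blocked 0.00675). The 6 differences within a letter ran from -3.16 to -1.29. Between 4 h and 18 h it fell by 1.75 in Irf4+/- cells (blocked adjusted p = 0.027) and by 1.67 in Irf4-/- cells (0.0422). Without the 18 h array of letter A these differences were -1.12 and -0.83, and the 18 h change against mock in Irf4-/- cells was -1.29. With every probe in the blocked fit the Irf4-/- difference between 18 h and 4 h was not called (0.0584). With every probe fitted on its own, the second Ccnd2 probe gave -2.08 and -2.06 at 18 h (blocked adjusted p 0.00485 and 0.00564). The third, which lacked 1 Irf4+/- 18 h array after an outlier flag, gave -1.997 (0.0541) and -2.03 (0.0232) in the blocked fit.

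Cdkn1c and Ccnd2 had the second highest correlation among the members (Pearson 0.845 over the 18 arrays after removing letter means, with no test), followed by Cdkn2c with Cdkn2d (0.756) and Cdkn2d with Ccnd3 (0.732). Over the 4 members that the blocked fit called, 2 peaked at 4 h and 2 were lowest at 18 h. All 4 fell between 4 h and 18 h in the blocked fit, in Irf4+/- cells, where 11.7% of all genes were called and 6.43% fell, and in Irf4-/- cells, where 8.63% were called and 3.8% fell. The unblocked fit called none of them between these times, where 1.16% and 0.582% of genes were called, with 2 and 1 of the 10 members at an unadjusted limma p under 0.05.

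Ccnd3, the D-type cyclin most used by lymphocytes, and Ccnd1 were called in no comparison by the unblocked or the blocked fit. Ccnd3 changed by -0.55 ± 0.38 and -0.43 ± 0.38 in Irf4+/- cells at 4 h and 18 h and by -0.34 and -0.17 in Irf4-/- cells. Its level was below mock in all 6 cultures at 4 h, with a blocked adjusted p of 0.0617 in Irf4+/- and 0.233 in Irf4-/- cells. With the culture or the slide as a block in place of the letter, the Irf4+/- change at 4 h was called (adjusted p 0.0103 to 0.0248). Ccnd1, the D-type cyclin that CSF1 induces in macrophages, changed by -0.23 ± 0.76 and -0.56 ± 0.76 in Irf4+/- cells and by -0.44 and -0.89 in Irf4-/- cells. At 18 h all 6 cultures were below their mock sample, by 0.14 to 1.06, and in Irf4-/- cells the 18 h and mock samples did not overlap (adjusted p = 0.718, blocked 0.122). There too the blocks by culture or slide called the change (adjusted p 0.00802 to 0.0331).

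At 18 h neither genotype had a member called in the unblocked fit, in which 4.2% of genes in Irf4+/- and 3.61% in Irf4-/- cells were called. In each, 2 of 10 members (Cdkn1c and Ccnd2) had an unadjusted limma p under 0.05. The blocked fit called 3 members in Irf4+/- cells (Cdkn1a, Cdkn1c, Ccnd2) and 2 in Irf4-/- cells (Cdkn1c, Ccnd2), against 15.7% and 18.8% of all genes. At 4 h in Irf4-/- cells the unblocked fit called none of the 10, with 2 (Cdkn1a and Cdkn2b) at an unadjusted p under 0.05 and 3.96% of genes called. The blocked fit called 3 there, against 18.4%. The median change of the 10 members lay between -0.42 and -0.23 over these 4 comparisons, and the median over all genes between -0.02 and 0.12.

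The genotypes were compared to ask whether loss of Irf4 changes these genes or their response to IL-4. No member was called between samples labelled Irf4-/- and Irf4+/- in mock cells, at 4 h or at 18 h, in either fit. Among all genes the unblocked fit called 0%, 0% and 0.0262% in these comparisons and the blocked fit 0.0327%, 0.0262% and 0.452%. No member had an unadjusted limma p under 0.05 in the unblocked fit. In the blocked fit 1 member did in mock cells, 2 at 4 h and 1 at 18 h. Ccnd1 was the one at each time, joined by Cdkn1a at 4 h. The block by letter treats the samples of 1 culture as independent. Between genotypes its p-values can therefore understate the spread between cultures.

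Ccnd1 was higher in Irf4-/- than in Irf4+/- cells of the same letter in all 9 pairs. These pairs come from 3 independent experiments, each sampled in 3 conditions, and are not 9 independent comparisons. In Irf4+/- samples A, B and C it read 3.96, 1.52 and 4.50 in mock cells, 3.56, 1.76 and 3.97 at 4 h and 3.11, 1.38 and 3.81 at 18 h. In Irf4-/- samples it read 4.95, 4.02 and 4.62, then 4.56, 3.47 and 4.24, then 3.89, 3.10 and 3.93. The Irf4+/- cells of letter B were the lowest at each time, and their highest value, 1.76, lay below the lowest of the other 15 samples, 3.10.

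The difference in Ccnd1 was 1.20 ± 0.76 in mock cells, 0.99 ± 0.76 at 4 h and 0.87 ± 0.76 at 18 h, with a blocked adjusted p of 0.286, 0.676 and 0.329. Without the Irf4+/- array of letter B it was 0.30, 0.32 and 0.18. In mock cells the difference was 0.99 within letter A, 2.50 within B and 0.12 within C. In letters A and B each genotype lay on a slide of its own, so genotype and slide cannot be told apart there. In letter A the genotypes were also scanned on different days. In letter C the samples compared at each time lay on different slides as well. Some IL-4 comparisons also crossed slides within letter C. There the Irf4+/- 18 h array lay apart from its mock and 4 h arrays, and the Irf4-/- mock array apart from its IL-4 arrays.

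The summed linear level of the 14 proliferation markers was also lowest in the Irf4+/- cells of letter B (135 to 141, against 174 to 412 in the other 15 samples), and the part of this in the Ccnd1 difference was not tested. Ccnd2 in mock cells differed by 2.03 between the genotypes in letter B, by -0.69 in A and by -0.24 in C.

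**Figure D3:**
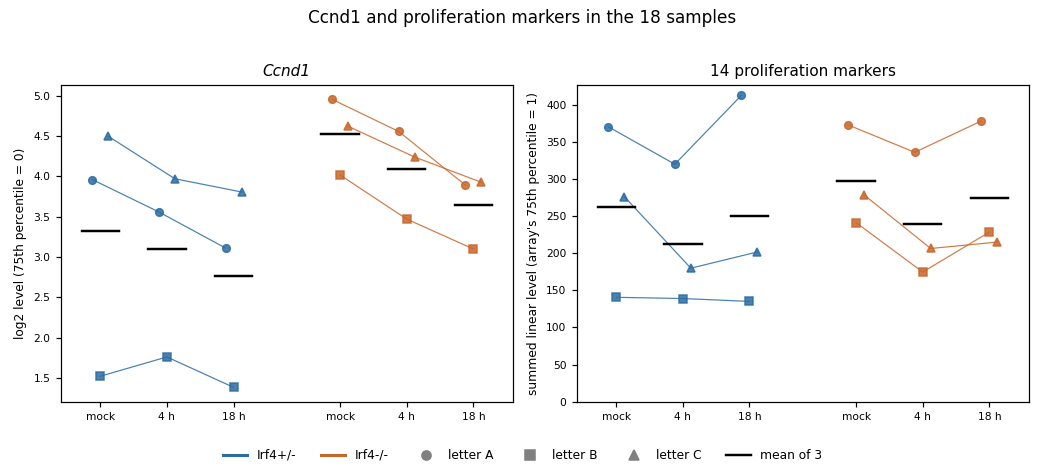
Left, log2 level of Ccnd1 (75th percentile of the array = 0) and right, summed linear level of 14 proliferation markers (75th percentile = 1) in the 18 samples, with 1 line per letter and genotype and black bars for means of 3. The Irf4+/- cells of letter B are lowest in both, at 1.38 to 1.76 for Ccnd1 and 135 to 141 for the markers.

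The response to IL-4 was compared between genotypes as a difference of differences. None of the 10 members was called at 4 h or 18 h by either fit, none had an unadjusted p under 0.05, and 0% of all genes were called. For Cdkn2b the 4 h response was 0.32 smaller in Irf4-/- cells, with a blocked 95% interval of -1.54 to 0.91 for Irf4-/- minus Irf4+/-. For Cdkn1a the blocked interval at 4 h was -0.72 to 0.26. At 18 h it was -0.81 to 0.89 for Cdkn1c and -1.39 to 1.44 for Ccnd2. Over the 10 members the half-width of these intervals was 0.49 to 1.41 in the blocked fit and 1.07 to 2.60 in the unblocked fit, so smaller differences could not be seen with 3 samples a group.

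The rest of the G1 machinery was examined through lists of partner genes. Among 12 partner kinases and their activators, 1 rose and 11 were not called at 4 h in each genotype in the unblocked fit, which called 4.31% and 3.96% of all genes. The blocked fit, which called 18.4% in each, had 2 up and 1 down in Irf4+/- and 2 up and 4 down in Irf4-/- cells. The 1 called in the unblocked fit was Cdk7, the kinase that activates other CDKs, which rose by 1.00 ± 0.17 in Irf4+/- cells (adjusted p = 0.00354, blocked 1.51e-04) and by 0.71 ± 0.17 in Irf4-/- cells (0.0317, blocked 0.00188). The Irf4-/- call was lost under 10 of 17 alternatives and the Irf4+/- call under 2. None of the 12 was called at 18 h in the unblocked limma fit, and none had an unadjusted p under 0.05 there. The list's median change at 4 h was -0.32 and -0.39, against -0.02 and 0.08 over all genes.

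Of the 5 cyclins of types E, A and B that were tested (of 6), none was called against mock by either fit, and none had an unadjusted p under 0.05 in the unblocked fit. Their median change was -0.19 and -0.31 in Irf4+/- cells at 4 h and 18 h and -0.24 and -0.32 in Irf4-/- cells.

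Among 13 pocket proteins and E2F factors, 1 fell at 4 h in each genotype and 12 were not called in the unblocked fit. The blocked fit called 1 up and 4 down in Irf4+/- cells and 1 up and 5 down in Irf4-/- cells, against the 18.4% of all genes given above. E2f2, an activator of S-phase genes, fell by 1.14 ± 0.30 in Irf4+/- cells (adjusted p = 0.0412, blocked 0.00101) and changed by -0.998 in Irf4-/- cells (0.0864, blocked 0.00263). Rb1, the retinoblastoma protein that D-type cyclin kinases act on, fell by 0.63 ± 0.16 in Irf4-/- cells (adjusted p = 0.0437, blocked 0.00578) and changed by -0.60 in Irf4+/- cells (0.0521, blocked 0.0072). The unblocked call of Rb1 was lost under 11 of 17 alternatives, median scaling (0.197) and every left-out array of the compared groups among them, and that of E2f2 under 9. At 18 h Rb1 differed from mock by -0.11 in Irf4+/- and 0.01 in Irf4-/- cells, and no gene of the list was called in the unblocked fit.

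The list of 13 genes acts in the turnover of the members' proteins. Only Cul4a, scaffold of ubiquitin ligases whose targets include p21, was called in the unblocked fit, with a rise of 0.61 ± 0.16 at 18 h in Irf4+/- cells (adjusted p = 0.0397, blocked 0.00124). That call was lost under 10 of 17 alternatives, median scaling (0.0931) and normexp (0.21, adjusted p = 0.471) among them. In Irf4-/- cells it changed by 0.58 (0.0583, blocked 0.00206). The other 12 genes of the list, among them Skp2 and Cks1b, were not called against mock in that fit.

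Of 16 genes of the p53 pathway, 1 rose and 1 fell at 4 h in Irf4+/- cells and 14 were not called in the unblocked fit. In the blocked fit 2 rose and 2 fell. The fits called 4.31% and 18.4% of all genes there. Aen, a p53-induced nuclease, rose by 1.23 ± 0.31 (adjusted p = 0.0347, blocked 1.52e-05) and changed by 1.05 in Irf4-/- cells (0.0857, blocked 6.13e-05). That call in Irf4+/- cells was lost under 9 of 17 alternatives, median scaling (0.106) and quantile normalization (0.083) among them. At 18 h Aen differed from mock by 0.36 and 0.20, called by neither fit. Pmaip1, the pro-death p53 target Noxa, fell by 1.34 ± 0.29 in Irf4+/- cells and by 1.14 in Irf4-/- cells at 4 h (adjusted p 0.0134 and 0.0363) and by 1.20 in Irf4+/- cells at 18 h (0.0258), calls that were lost under 3, 9 and 4 of 17 alternatives. The list's median change at 4 h was 0.18 and 0.25.

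The 24 upstream regulators held the largest called changes among these lists. In Irf4+/- cells 2 rose and 1 fell at 4 h and 3 rose and 1 fell at 18 h. In Irf4-/- cells 3 rose and 1 fell at each time. These are unblocked counts, in a fit that called 4.31%, 4.2%, 3.96% and 3.61% of all genes in that order. In the blocked fit 5 rose and 3 fell, 4 and 3, 3 and 4, and 4 and 2. That fit called 18.4%, 15.7%, 18.4% and 18.8% of all genes. Klf4, a zinc-finger factor that can activate Cdkn1a, rose by 2.09 and 2.41 in Irf4+/- cells at 4 h and 18 h and by 2.29 and 2.45 in Irf4-/- cells, each ± 0.37 (adjusted p 0.00128 to 0.00404), called under every alternative but the compared groups alone at 4 h in Irf4+/- cells (0.0632).

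Cebpa, a myeloid factor that slows division, rose by 1.23 ± 0.27 in Irf4+/- cells at 18 h (adjusted p = 0.0175) and by 1.03 and 1.38 in Irf4-/- cells at 4 h and 18 h (0.049 and 0.00935). The 4 h call was lost under 11 of 17 alternatives, median scaling (0.13) and quantile normalization (0.0725) among them, and the 18 h calls under 5 in Irf4+/- and 2 in Irf4-/- cells. Smad3, the TGF-beta signal transducer, fell, with changes of -1.73 and -2.24 in Irf4+/- cells and of -1.78 and -2.20 in Irf4-/- cells, each ± 0.26 (adjusted p 1.36e-04 to 0.00119). With normexp as planned, however, the 18 h change of Smad3 in Irf4+/- cells was 0.09 and it was called in no comparison. With spots far dimmer than their surroundings left out of that correction, it was -1.39 (adjusted p = 6.03e-04).

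None of the 14 proliferation markers was called against mock in the unblocked fit, and none had an unadjusted p under 0.05 there. The blocked fit called 1, down, at 18 h in Irf4-/- cells, where it called 18.8% of all genes. Their median change was -0.37 and -0.29 in Irf4+/- cells and -0.40 and -0.20 in Irf4-/- cells at 4 h and 18 h. The plot of cell-cycle lists shows each gene.

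**Figure D4:**
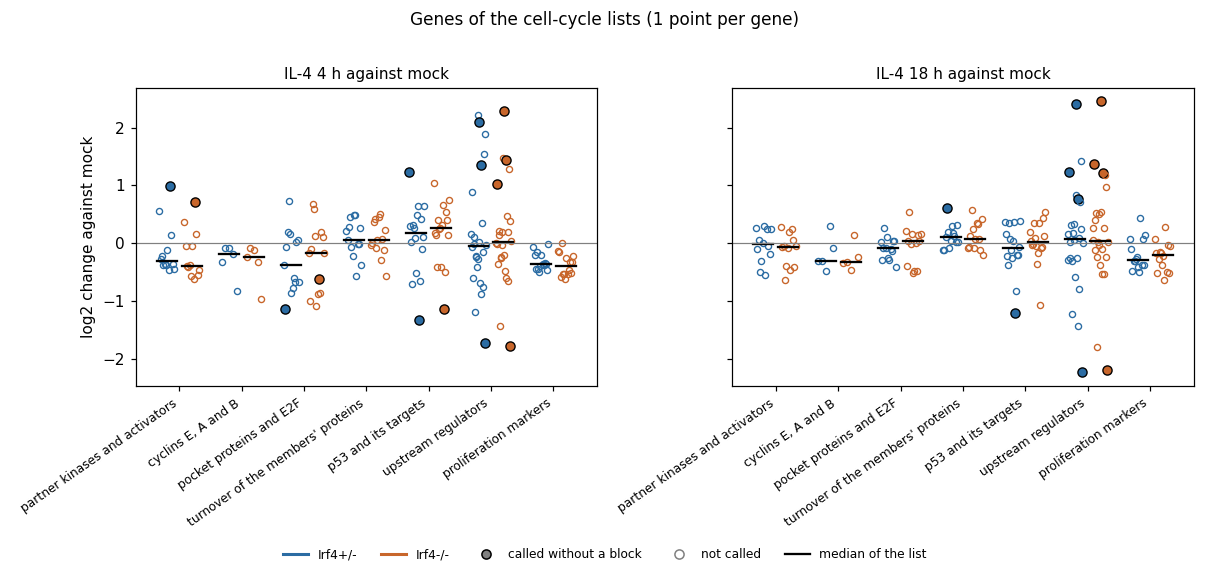
Log2 change against mock at 4 h (left) and 18 h (right) of each gene in 7 lists, in Irf4+/- and Irf4-/- cells, with filled points for genes called in the unblocked fit and black bars for list medians. No list has more than 4 called genes in a comparison, and the called genes farthest from 0 are the upstream regulators Klf4, up, and Smad3, down.

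For Cdkn2b, the member called in both fits, the tested genes with the most similar pattern over the 18 arrays after removal of letter means were Rcl1 (Pearson correlation 0.972), Map3k12 (0.96) and Mcrip2 (0.96). Their changes at 4 h in Irf4+/- cells were 1.42 for Rcl1 (adjusted p = 0.115), 2.06 for Map3k12 (0.0202) and 0.99 for Mcrip2 (0.302). The correlations are descriptions over arrays that share conditions.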

How the data were processed

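Total RNA of 18 samples was labelled with Cy3 and measured on 18 arrays. Per the file headers, the authors extracted the arrays with Agilent Feature Extraction 9.5.1, and the deposited intensity of a spot is that program's processed signal. The deposited series table holds log2 values. They matched the scanner values minus those of the Irf4+/- mock array of the same letter (lowest correlation 0.9999 over 23604 probes), and column medians lay between -0.18 and 0.21. Its preparation by the authors is not described further here.

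From the intensities, log2 minus the array's 75th percentile was taken without control and outlier spots, and spots of 1 probe were averaged. A probe was kept if some group had it well above background on each of its 3 arrays (27505 probes), and the brightest kept probe stood for its gene. Probes were named through their RefSeq accession (22944), a current symbol (6664), a synonym (3108) or the file's own name (1464), and 6994 had none. limma 3.58.1 in R 4.3.3 (statmod 1.5.0) fitted 1 mean per group over all 18 arrays, with two-sided p-values and Benjamini-Hochberg adjustment over 15281 genes, and was tested on simulated data. Files were read with pandas 2.3.3 and numpy 2.4.6 under Python 3.11.15, and plots drawn with matplotlib 3.10.9.

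The letters pair the samples: deviations of same-letter arrays correlated at 0.496 or more in every pair, and the design describes independent experiments with littermates. Named genes were all members, up to 4 called genes per list with the largest change against mock, and the 3 genes most correlated with a called member. The members and lists were chosen with earlier results of these data known. Precision is limited by 3 arrays per group. The values of 1 called gene of the upstream regulators are not reported here.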

Additional observations from a re-analysis of the deposited data

How the results depend on the processing

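Alternatives were the replicate block, median scaling, quantile normalization, no filter on dim probes, every kept probe on its own, the compared groups alone, the pooled culture or the slide as a block, normexp, the authors' deposited table as a value without a test, and each array left out in turn. Normexp without spots over 50 units dimmer than their surroundings was added after seeing the data. No change of a member that either fit called turned its direction. In the comparisons of IL-4 with mock and of 18 h with 4 h, 41 member changes were called in neither fit. Of these, 20 changed sign under some alternative, none of them called there, and 11 were called under some block by culture or slide. Those blocks called 1994 to 5576 of all 15281 genes in a comparison, so the 11 are not read as a result about the members. Between genotypes only Ccnd1 was followed under the alternatives, and differences of response were followed only as counts of called members. Of the 24 called changes of list genes, 5 were kept under every alternative run, and Smad3 in Irf4+/- cells at 18 h turned to 0.09026 with normexp.

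The replicate block called 3 members at 4 h and 3 at 18 h in Irf4+/- cells, 3 at 4 h and 2 at 18 h in Irf4-/- cells, and 4 between 18 h and 4 h in each genotype, and changed no other call of a member. In the same order of 6 comparisons, the culture as a random block called 6, 7, 4, 4, 4 and 4 members, the slide as a random block 6, 4, 2, 3, 3 and 4, and the slide as a fixed block 7, 3, 2, 3, 3 and 4. Of all 15281 genes, in that order, the culture as a random block called 4762, 4050, 5328, 5576, 3555 and 3213. The slide called 5046, 3443, 4168, 4272, 2932 and 3454 as a random block. As a fixed block it called 4523, 2737, 3199, 3697, 1994 and 2783. The correlation estimated for the random blocks was 0.81 (culture) and 0.811 (slide). Over all genes in Irf4+/- cells at 4 h and 18 h, the unblocked fit called 658 and 642, the replicate block 2811 and 2401, the other blocks 2737 to 5046, normexp 260 and 264, and the compared groups alone 213 and 168. In Irf4-/- cells the unblocked fit called 605 and 552, and 292 and 282 without the IL-4 array of letter C. At 4 h in Irf4+/- cells the compared groups alone and normexp each called 0 members. Normexp without very dim spots called 2 there and 1 in Irf4-/- cells, with 578 and 589 of all genes called. Leaving out an array gave 0 to 1 members at 4 h in either genotype and at 18 h in Irf4+/- cells, and 0 elsewhere. In the comparisons with 0 to 1 members, the fits without an array called 292 to 644 of all genes. Genotype comparisons and differences of responses had 0 members under every alternative run. The probe used for each member was well above background on all 18 arrays. Background correction still mattered, since normexp changed values of Cdkn2a and Cdkn1a and lost the unblocked call of Cdkn2b. Normexp without very dim spots kept that call (2.57, adjusted p = 0.0172). With it the 18 h changes in Irf4+/- cells were 0.03 for Cdkn2a and 0.50 for Cdkn1a.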
